A study of Mus musculus with 32 samples.

Results

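The nuclear-encoded respiratory chain genes were the 92 genes annotated as protein-coding in the deposited neurite-enrichment tables whose symbols begin with Nduf, Uqcr, Cox4 to Cox8 or Atp5, or are Sdha, Sdhb, Sdhc or Sdhd. They were chosen by name, out of 15805 protein-coding genes in those tables and 55573 genes in the count table. By complex, 37 encode complex I subunits, 8 complex I assembly factors (Ndufaf), 4 complex II, 8 complex III, 18 complex IV (with Ndufa4 and Ndufa4l2) and 17 complex V. Another 17 matching symbols carried a pseudogene biotype and were left out. The RNA-seq data were 16 libraries from mouse hippocampal neurons in 8 groups of 2 libraries, from soma or neurites of WT (C57BL/6) or Mettl3 KO (Mettl3 flox/flox) cultures, without (Ctrl) or with 55 mM KCl for 2 h. Neurons of both genotypes received an AAV (50000 vector genomes per cell) that expresses Cre from the neuronal synapsin promoter at DIV 7, so that the WT cultures carried Cre as well, and strain and genotype cannot be told apart. TTX (1 µM) and D-AP5 (50 µM) had silenced all cultures from DIV 14 on for 16 h before harvest at DIV 15. Soma RNA came from the top of a porous membrane, where neurites also lie, and neurite RNA from its underside. Each library came from neurons pooled from 1 litter, and the replicates of a group from different litters.

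The respiratory chain is the set of protein complexes in the inner mitochondrial membrane that makes most of the ATP of a neuron. Complexes I and II feed electrons from NADH and succinate into the membrane, complex III passes them to cytochrome c, complex IV hands them to oxygen, and complex V uses the resulting proton gradient to make ATP. Most subunits are encoded in the nucleus, translated in the cytosol and imported into mitochondria, so that RNAs in axons and dendrites can be translated close to mitochondria far from the cell body. The deposited counts of the mitochondrially encoded subunits were 0 in every library, and only the nuclear side of the chain could be followed.

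The libraries held 33789183 to 71394235 counts, and every one of the 92 genes passed the minimum mean count of 10 in each of the 10 comparisons. Mettl3, which encodes the m6A methyltransferase removed in the KO, stood at 8.90 to 17.3 CPM (counts scaled by TMM to a common library size) in the WT libraries and at 3.88 to 11.6 in the KO libraries, so that the ranges overlapped, but within each compartment and treatment both KO libraries were below both WT libraries. Mettl3 KO Ctrl soma replicate 2 stood apart, with a median of 25.1 CPM over the respiratory chain genes against 142 in replicate 1. Both libraries of KCl-treated KO insert 1 carried glial RNA, with summed oligodendrocyte lineage markers of 3511 CPM in soma and 6963 in neurites against at most 203 in all other libraries. Their summed astrocyte markers were 9693 and 18711 CPM. The neuron markers were still detected in both, but their sums were 1917 CPM in soma and 1086 in neurites, against at least 3483 in all other libraries. The results that rest on these libraries are given with and without them. In bulk RNA, fewer cells of a type and less RNA per cell cannot be told apart.

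Sites of m6A, the methyl mark that METTL3 writes, had been mapped by DART-seq, in which a deaminase fused to an m6A-binding domain turns the C after a methylated A into U. The 16 DART-seq libraries covered the same genotypes, compartments and treatments as the RNA-seq libraries. The list held sites in 39 of the 92 RNAs (42.4%), against 34.8% of all protein-coding genes. Complex III had sites in 6 of 8 RNAs, complex I in 16 of 37, complex IV in 8 of 18, complex V in 6 of 17, complex II in 2 of 4, and the assembly factors in 1 of 8. Among RNAs of at most 1000 bases the shares were 44.1% of the respiratory chain RNAs and 33.0% of protein-coding genes. The site caller required a minimum number of reads at a position, so that all these shares depend on coverage too. They were not matched for level. Of 62 distinct positions, 35 lay in coding sequence, 15 in the 3′ UTR, 9 in the 5′ UTR and 3 outside annotated protein-coding exons. The most edited site of the highest-scoring RNA of each class is printed here as 21 bases of the transcript strand (GRCm38), to show where the modified base lies. The capitals mark the edited C, the A before it and the purine before that A, and the percentage is the authors' average C-to-U conversion in WT.
Ndufv1, coding sequence, exon 6 of 10, chr19:4008758-4008778, minus strand, 3.78%: caatgtggaGACagtggctgt
Ndufaf3, coding sequence, exon 4 of 5, chr9:108566225-108566245, minus strand, 7.63%: ggcactggaAACaagactgag
Sdha, 3′ UTR, exon 15 of 15, chr13:74322288-74322308, minus strand, 5.29%: gaaatgaagGACtttaaccag
Uqcrc2, 3′ UTR, exon 14 of 14, chr7:120659208-120659228, plus strand, 10.1%: aaaaaaaaaAACttaaaagca
Cox6b2, coding sequence, exon 2 of 4, chr7:4752741-4752761, minus strand, 9.08%: ccagaaccaGACgcgtaactg
Atp5g1, 3′ UTR of a transcript other than the principal one, exon 5 of 5, chr11:96072474-96072494, minus strand, 3.90%: tttgtgcaaAACcctgagcgg

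The purine, A and C of these windows recurred at all 18147 distinct sites of the list, as the site caller had required. The windows of Cox5b, a complex IV subunit, and Cox5b-ps, a single-exon copy that the tables list as protein-coding, are shown because the 2 RNAs read alike at this site. The genomic window of Cox5b starts with 9 bases of the intron before exon 3, and once exons 2 and 3 are joined its 21 bases match those of Cox5b-ps in full.
Cox5b, 9 bases of intron and 12 bases of coding sequence, exon 3 of 4, chr1:36692442-36692462, plus strand, 0.76%: ctctttcagGACccatacaat
Cox5b-ps, coding sequence, exon 1 of 1, chr13:21501230-21501250, minus strand, 1.23%: aagggactgGACccatacaat
Counting had kept reads that map to several places, so the levels of the pair, and of genes with an expressed pseudogene, were not independent. In WT Ctrl, Ndufs5-ps stood at 105 CPM beside 161 for Ndufs5, and Ndufa12-ps at 116 beside 304 for Ndufa12.

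In untreated WT neurons, respiratory chain RNAs were shifted towards neurites. Of the 92, 37 were higher in neurites by at least 1.5-fold at an adjusted p of at most 0.05 (edgeR's quasi-likelihood test with Benjamini-Hochberg adjustment) and 0 were higher in soma (4 at an unadjusted p under 0.05, and 0 by DESeq2), against 9.01% and 4.54% of all 23200 genes tested. The median log2 neurite/soma difference was 0.50, compared with −0.10 over all genes tested, and 74 of 92 values were positive. Taken insert by insert, the median log2 ratio of the 92 was 0.42 in replicate 1 and 0.60 in replicate 2. For 74 genes both neurite libraries lay above both soma libraries, against 31.3% of all genes tested. For 10 both lay below, against 33.7%, and for 8 they overlapped. The printed CPM were scaled over all 16 libraries and the fits over the 8 WT libraries, so that ratios of printed levels ran 1.047 times above the fitted folds (median of the 92).

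**Figure D1:**
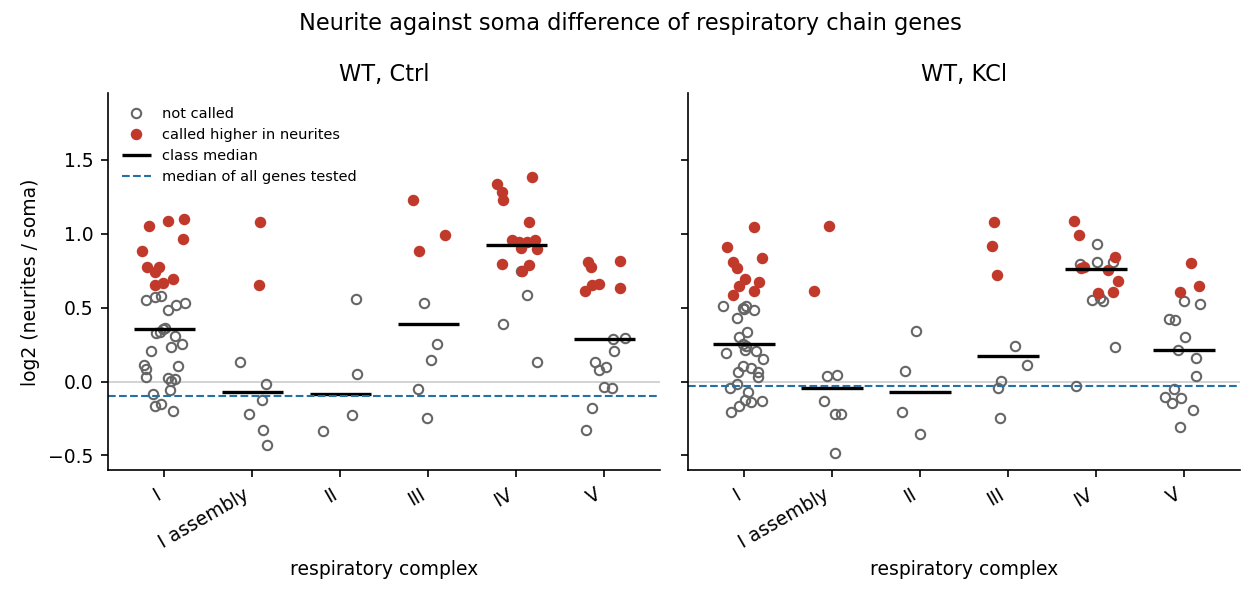
The log2 difference between neurites and soma (y axis) of each of the 92 genes is plotted by complex (x axis) in WT Ctrl (left) and WT KCl (right). Filled points passed 1.5-fold and an adjusted p of at most 0.05, black bars are class medians and the dashed line is the median of all genes tested. All 18 complex IV values lie above 0 in WT Ctrl, and complex II and the assembly factors have medians just below 0.

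Complex IV, cytochrome c oxidase, was the class with the most neurite-enriched RNAs, with 14 of 18 called and a median of 0.92. The 18 include Cox5b-ps, whose level is not independent of that of Cox5b. They also include the rare isoforms Cox4i2, Cox6a2, Cox6b2, Cox7a1 and Ndufa4l2. Cox8a (chr19:7215153-7217616), a small membrane-spanning subunit, measured 557 and 474 CPM in the soma libraries and 1326 and 1408 CPM in the neurite libraries, a 2.53-fold difference (log2 1.34, SE 0.12, adjusted p = 0.00016). Cox6a1, a subunit at the dimer interface, measured 887 and 761 CPM in soma and 2010 and 2187 CPM in neurites (log2 1.28, SE 0.12, adjusted p = 0.000191). In both genes the neurite libraries stood well above the soma libraries, without overlap. The 2 values at the low end of the class were Cox7b at 0.39 (adjusted p = 0.0618) and Cox5a at 0.13 (adjusted p = 0.446), and neither was called.

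The subunit isoforms of complex IV were compared because several are known from particular tissues. The ubiquitous Cox4i1 was 1.74-fold higher in neurites, while Cox4i2, its lung and hypoxia isoform, was near the detection floor at 0.29 and 0.35 CPM in soma and 0.76 and 0.36 CPM in neurites and was not called. Cox6a2, the heart and muscle form, had a difference of 1.23 next to 1.28 for Cox6a1, and Cox6b2, the testis form, 0.94 next to 0.96 for Cox6b1. All 4 were called, although Cox6a2 and Cox6b2 lay between 2.69 and 12.8 CPM and Cox6a1 and Cox6b1 between 303 and 2187. The muscle form Cox7a1 (0.94), the ubiquitous Cox7a2 (0.75) and Cox7a2l (0.79), which helps to join complexes III and IV, were called as well. Cox7a1 averaged only 1.90 CPM over the WT Ctrl libraries. Ndufa4l2, a hypoxia-induced paralogue of Ndufa4, had the highest difference of the 92 at 1.38 (SE 0.35), but at 0.67, 0.64, 1.47 and 2.11 CPM in the 4 libraries. Ndufa4 itself, at 381 and 320 CPM in soma and 554 and 549 in neurites, missed the fold threshold at 1.499-fold in edgeR's fit (adjusted p = 0.00597). The ratio of its printed levels is 1.57, and with DESeq2 or RLE scaling it was called. Cox7b2, Cox8b and Cox8c were not analysed here.

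**Figure D2:**
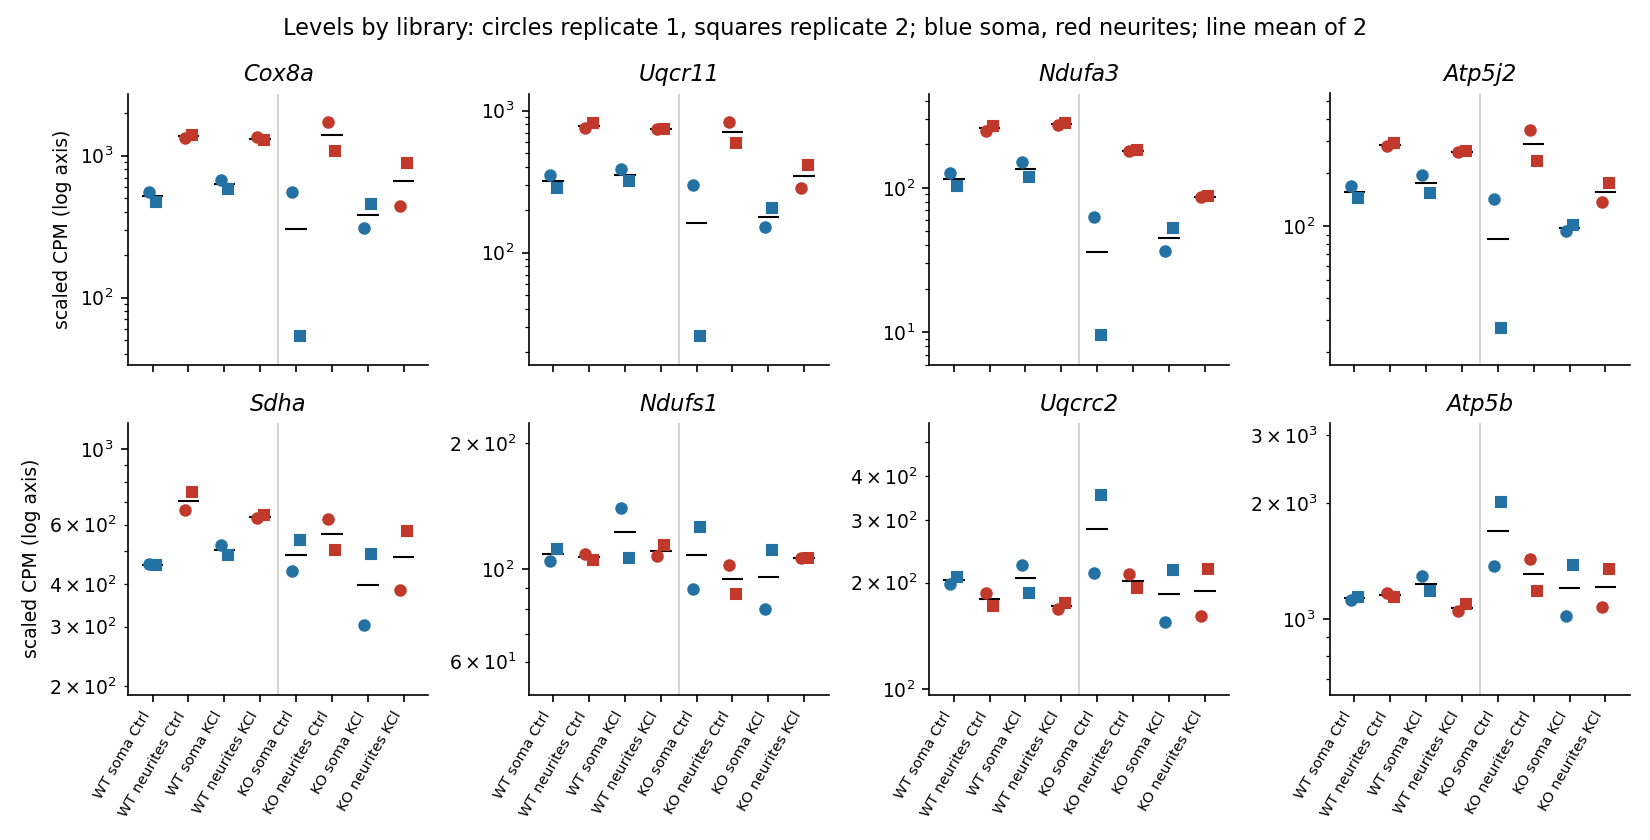
TMM-scaled CPM (y axis, log scale, a separate range per gene) of 8 respiratory chain genes is shown in each of the 16 libraries, grouped by genotype, compartment and treatment (x axis). Blue marks soma, red neurites, circles replicate 1, squares replicate 2 and lines group means. In the top row the WT neurite libraries lie above the WT soma libraries, while Ndufs1, Uqcrc2 and Atp5b in the bottom row overlap or lie close together, and Mettl3 KO Ctrl soma replicate 2 drops in the top row alone.

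In complex I, the entry point for electrons from NADH, 11 of 37 RNAs were called and the median was 0.36. Ndufa3 (chr7:3617373-3620327), an accessory subunit, rose from 127 and 103 CPM in soma to 246 and 269 CPM in neurites (log2 1.10, SE 0.14, adjusted p = 0.00092). Ndufb9, an accessory subunit of the membrane arm, measured 262 and 225 CPM in soma and 499 and 582 CPM in neurites (log2 1.09, adjusted p = 0.000697). At the other end, the neurite and soma libraries of Ndufs7, a core subunit that binds an iron-sulphur cluster, lay close together at 112 and 114 CPM in soma and 106 and 100 CPM in neurites (log2 −0.20, adjusted p = 0.298). Ndufc2, another accessory subunit, had a difference of −0.17 (adjusted p = 0.355). None of the complex I calls was in the soma direction.

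The complex I assembly factors, which are chaperones and not parts of the finished enzyme, had a median of −0.07 with 2 of 8 called. Ndufaf8 measured 13.4 and 11.6 CPM in soma and 26.7 and 28.5 CPM in neurites (log2 1.08, adjusted p = 0.00235), and Ndufaf3 was 1.58-fold higher in neurites (adjusted p = 0.0152). Ndufaf1 at −0.33 and Ndufaf4 at −0.43 were lower in neurites by value, with adjusted p of 0.146 and 0.112. A separate list of 38 assembly factors for complexes I to V outside the Ndufaf family had 3 of 37 tested genes called higher in neurites and a median of 0.01.

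Complex II, which is also an enzyme of the citric acid cycle, had 0 of 4 RNAs called by edgeR, with 2 of 4 at an unadjusted p under 0.05. Sdha, the flavoprotein that oxidises succinate, measured 459 and 455 CPM in soma and 664 and 748 CPM in neurites. Its fitted difference of 1.48-fold fell just short of 1.5-fold (adjusted p = 0.00616 in edgeR's test). The ratio of the printed levels is 1.54, and with DESeq2 or RLE scaling Sdha was called. Sdhb, the iron-sulphur subunit, had a difference of 0.05, and the membrane anchors Sdhc and Sdhd −0.22 and −0.34 (adjusted p = 0.255 and 0.112). Among 13 other citric acid cycle enzymes, 1 was called higher in neurites and the median was −0.15.

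Complex III, cytochrome bc1, had 3 of 8 RNAs called, all of them for small subunits, and a median of 0.39. Uqcr11 (chr10:80402997-80406830), a small accessory subunit, measured 351 and 286 CPM in soma and 751 and 814 CPM in neurites (log2 1.23, SE 0.13, adjusted p = 0.000348). Uqcrq was 1.99-fold and Uqcr10 1.84-fold higher in neurites, and with Uqcr11 these were the called RNAs. The other small subunits were not called. Uqcrh measured 167 and 155 CPM in soma and 241 and 247 CPM in neurites (1.44-fold, adjusted p = 0.0168), and Uqcrb was 1.11-fold higher in neurites by value (adjusted p = 0.444). Uqcrfs1, the Rieske iron-sulphur protein, had a difference of −0.05, a sign that turned to 0.06 without WT Ctrl soma replicate 2, and the core protein Uqcrc2 one of −0.24 (adjusted p = 0.142). The 4 libraries of Uqcrc2 ran from 172 to 208 CPM, with both soma libraries above both neurite libraries.

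Complex V, the ATP synthase, had 7 of 17 RNAs called and a median of 0.29. Atp5k and Atp5j2, which encode membrane subunits e and f, were 1.76-fold higher in neurites (adjusted p = 0.00674 and 0.00241), with Atp5j2 at 168 and 143 CPM in soma and 281 and 291 CPM in neurites. Atp5o, at the joint of stalk and head, lay just inside the threshold at 1.53-fold, but 47.9% of its exon bases overlap other genes. Atp5g1, Atp5g2 and Atp5g3 encode the same mature rotor subunit c and differed in sign, at 0.30, 0.10 and −0.33. Atp5g3 measured 230 and 216 CPM in soma and 193 and 180 CPM in neurites, and was lower in neurites at an adjusted p of 0.0455 without reaching 1.5-fold. Atp5pb, the peripheral stalk subunit b, had a difference of −0.18 (adjusted p = 0.277).

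Called RNAs were short. Over 91 genes with an annotated length, the log2 neurite/soma difference correlated with log transcript length across genes at a Pearson r of −0.56 and a Spearman rho of −0.57, both given as descriptions since the genes share libraries. Across 15340 other protein-coding genes the values were −0.02 and −0.01. Of the 59 respiratory chain RNAs of at most 1000 bases, 32 were called (median 0.66), and of the 32 longer ones 5, which were Ndufa12, Ndufa13, Ndufv3, Ndufaf3 and Cox7a2l (median 0.02). In each of the 5 length classes up to 2500 bases the median of the respiratory chain RNAs lay above that of the other genes, and above 2500 bases it lay below (−0.15 and −0.11, over 4 RNAs). Up to 500 bases, 12 of 16 were called against 29.1% of 148 other protein-coding genes (medians 0.79 and 0.29), and from there to 750 bases 14 of 30 against 16.5% of 411. Over 1500 and up to 2500 bases 1 of 12 was called against 6.75%, and above 2500 bases 0 of 4 against 7.22%, with 2 of 4 at an unadjusted p under 0.05. A fit with the trend over exon length taken out called 37 genes, of which 36 were shared. Exon length counts the exon bases of all annotated transcripts and can far exceed transcript length, as for Ndufb2 (5628 against 455 bases). That fit therefore did not take out transcript length, and the part of transcript length in the calls was not tested.

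**Figure D3:**
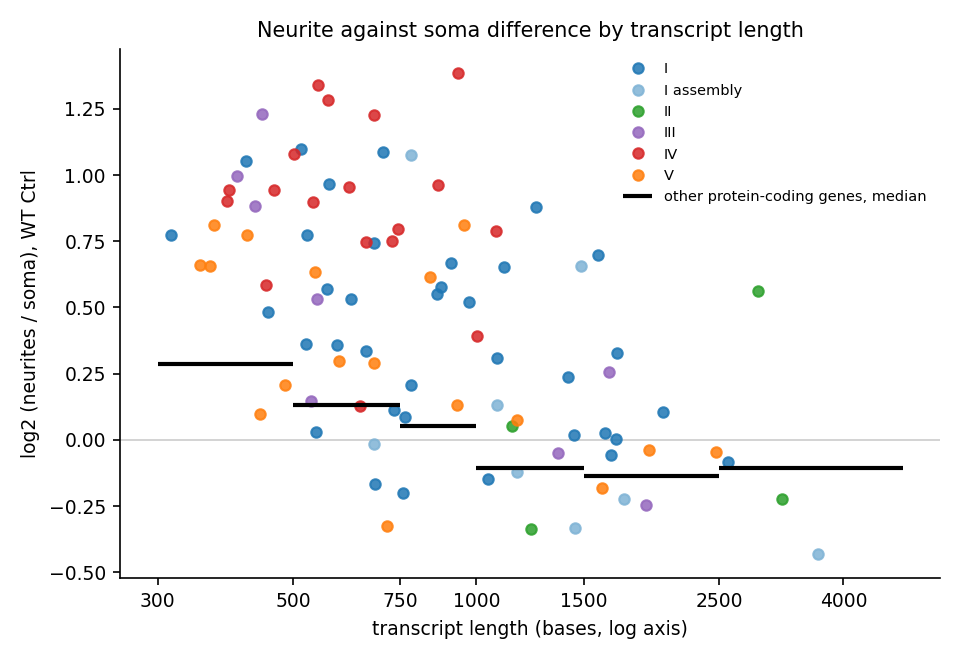
The log2 difference between neurites and soma in WT Ctrl (y axis) is plotted against transcript length in bases (x axis, log scale) for 91 respiratory chain genes, coloured by complex. Black bars are the medians of the other protein-coding genes in each length class. Points up to 1000 bases lie mostly above the bars, and points over 1500 bases lie near them.

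By level per kilobase of exon, averaged over the 4 WT Ctrl libraries, Cox6a1 stood first at 2082 CPM per kb, before Cox8a at 1521 and Uqcr11 at 859. The class medians of this level were 227 CPM per kb in complex IV, 169 in III, 108 in II, 104 in V, 93.1 in I and 12.5 in the assembly factors. The exon bases are those of all annotated transcripts of a gene and can far exceed 1 transcript, as for Atp5l (6443 against 544) and Atp5g1 (4912 against 596). The order of genes and classes holds for this measure alone and was not worked out by transcript length. Level and difference were only loosely related, as across the 92 genes log2 mean CPM and the neurite/soma difference correlated at a Pearson r of 0.02 and a Spearman rho of 0.20. The 78 mitochondrial ribosomal proteins, which are nuclear-encoded mitochondrial proteins as well, had 9 called and a median of −0.06, while the 90 cytosolic ribosomal proteins, also short RNAs, had 56 called and a median of 0.76. Of 9 genes for mitochondrial transport and anchoring 5 were called higher in neurites (median 1.28), of 15 import genes 2 higher and 1 lower, and of 11 regulators of mitochondrial gene expression 0, with 5 at an unadjusted p under 0.05, none of them higher in neurites. Cycs, which encodes cytochrome c, had a difference of 0.31 (adjusted p = 0.105).

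The neurite libraries also held more RNA of glial markers. Of 11 astrocyte markers 6 were called higher in neurites, and their sum was 1246 and 1266 CPM in the soma libraries and 3364 and 2094 CPM in the neurite libraries, with none at 0. Of 7 microglial markers 2 were called (summed 12.3 to 14.1 CPM in soma, 23.2 to 29.4 in neurites), as were 2 of 7 oligodendrocyte lineage markers (60.8 to 69.4 and 120 to 124) and 6 of 11 fibroblast and vessel markers (23.8 to 28.3 and 49.1 to 101.4). Summed neuron markers were higher in neurites too, at 4285 and 4466 CPM in soma and 5663 and 6190 CPM in neurites. Their members differed, as Map2 rose from 464 and 478 to 1436 and 1830 CPM while Gad1 fell from 318 and 343 to 283 and 233 CPM. Nuclear RNAs fell, from 6279 and 6320 CPM in soma to 3843 and 4128 CPM in neurites. The part of these differences in the respiratory chain result was not tested. The test itself depended on the libraries that shared the estimate of the spread: with the 8 KO libraries added, edgeR called 0 of the 92, with 7 at an unadjusted p under 0.05 and a median of 0.60, while DESeq2 on the 8 WT libraries called 42. Without WT Ctrl soma replicate 2 the count was 22.

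In KCl-treated WT neurons, a model of depolarisation, the same direction was measured. Of the 92, 27 were called higher in neurites and 0 higher in soma (4 at an unadjusted p under 0.05, and 0 by DESeq2), against 6.87% and 2.73% of all 23028 genes tested, and the median was 0.32 compared with −0.03. All 27 were among the 37 called in WT Ctrl, which is 73.0% of that list, and the libraries of these comparisons were separate although their cultures came from the same litters. By class the calls were 10 of 37 in complex I, 2 of 8 assembly factors, 0 of 4 in complex II (2 at an unadjusted p under 0.05), 3 of 8 in complex III, 9 of 18 in complex IV and 3 of 17 in complex V. Cox8a measured 675 and 580 CPM in soma and 1359 and 1284 CPM in neurites (log2 1.09, adjusted p = 0.000626). Uqcr11 measured 389 and 318 CPM in soma and 743 and 736 CPM in neurites (log2 1.08, adjusted p = 0.00105), and Cox6a1 was 1.99-fold higher in neurites. The inserts differed, with medians of 0.21 in replicate 1 and 0.46 in replicate 2, and both neurite libraries lay above both soma libraries for 54 genes (58.7%, against 26.4% of all genes tested) and below them for 8 (against 29.5%). The count was 11 without neurite replicate 1, 17 (with 1 in the soma direction) without soma replicate 2, 18 without neurite replicate 2, and 0 with the KO libraries in the fit, where 0 also had an unadjusted p under 0.05.

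The response to KCl itself was small in both compartments. In soma, edgeR called 0 of the 92 at 2-fold in either direction, against 3.74% higher and 2.96% lower with KCl among all 24060 genes tested. At an unadjusted p under 0.05 there were 5, all higher with KCl, and DESeq2 also called 0. Atp5d, the delta subunit of the central stalk, had the smallest p, with 261 and 261 CPM in Ctrl and 358 and 343 CPM in KCl soma, a 1.34-fold difference without overlap (log2 0.43, SE 0.10, adjusted p = 0.0147). Cox6a1 (0.31) and Ndufb2 (0.33), an accessory subunit of complex I, followed with adjusted p of 0.125 and 0.128. The median of the 92 was 0.08, beside 0.01 over all genes, and the values ran from −0.20 to 0.43. Single libraries moved these values. Without WT KCl soma replicate 1 the median was −0.03 and 4 genes had an unadjusted p under 0.05, of which 1 was higher with KCl. Without KCl replicate 2 there were 35, all higher (median 0.21), without Ctrl replicate 1 there were 15, and without Ctrl replicate 2 there was 1, in edgeR's test.

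In neurites, edgeR and DESeq2 likewise called 0 of the 92 for KCl, against 3.33% higher and 1.7% lower among all 22059 genes tested, and 1 had an unadjusted p under 0.05. That gene was Atp5d again, at 303 and 296 CPM in Ctrl and 333 and 338 CPM in KCl (log2 0.25, adjusted p = 0.14). The next smallest p-values belonged to the assembly factor Ndufaf2 (0.28, adjusted p = 0.228) and to Cox6b2 (−0.41, adjusted p = 0.274). The median was 0.01, and its sign turned with the scaling, to −0.03 under DESeq2, and to −0.06 without WT Ctrl neurite replicate 1. Across the 92 genes the values in neurites ran from −0.45 to 0.31.

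The change of neurite enrichment with KCl, fitted with 1 term per insert, was called for 0 of the 92 by edgeR at 1.5-fold with an unadjusted p no higher than 0.05, and DESeq2 also called 0. Among all 23200 genes tested, 2% were higher and 1.35% lower with KCl. The median was −0.10, beside 0.05 over all genes, and 73 of 92 values were negative. The sign rested on single inserts, since the median was 0.02 without WT Ctrl insert 2 and 0.04 without WT KCl insert 1, with 57 and 60 values positive, and −0.21 without either of the others. Cox6a1 (−0.29, SE 0.20), Uqcrh (−0.28, SE 0.20), the acidic hinge protein of complex III, and Ndufb2 (−0.27, SE 0.21) had the smallest p, with an adjusted p of 0.999 each in edgeR's test. Without the WT Ctrl insert 1, 1 gene was called, Cox6a2 at −0.81 (adjusted p = 0.661 in edgeR's test), which measured 3.5 to 12.8 CPM across the 8 WT libraries. This comparison shares all its libraries with those above.

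The Mettl3 KO soma comparison rested on 1 library. In Ctrl soma, edgeR called 0 of the 92 between KO and WT, against 0.0632% higher and 0.122% lower in KO among all 23750 genes tested, and DESeq2 called 0. At an unadjusted p under 0.05 there were 10, of which 2 were higher in KO, and the median was −0.66. Without KO soma replicate 2 the median was 0.06, and without KO soma replicate 1 it was −2.57. The lone KO library is assumed in those fits to vary like the other groups.

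In KO soma replicate 2, 79 of 91 genes with an annotated length stood below replicate 1, by a median of 6.02-fold. The gap followed length. All 59 RNAs of at most 1000 bases were lower, by a median log2 of −3.11, while 10 of the 16 RNAs over 1500 bases were higher in replicate 2. Cox8a fell from 556 to 53.5 CPM and Uqcr11 from 297 to 25.9 CPM between these replicates, whereas Uqcrc2 measured 213 and 353 CPM and Sdha 438 and 540 CPM. Other short genes were lower there too, by a median log2 of −1.41 up to 500 bases, where respiratory chain RNAs had −3.07. The summed level of short over long respiratory chain RNAs was 0.177 in this library and 1.23 to 1.62 in the 7 other soma libraries. The source of this gap was not tested.

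**Figure D4:**
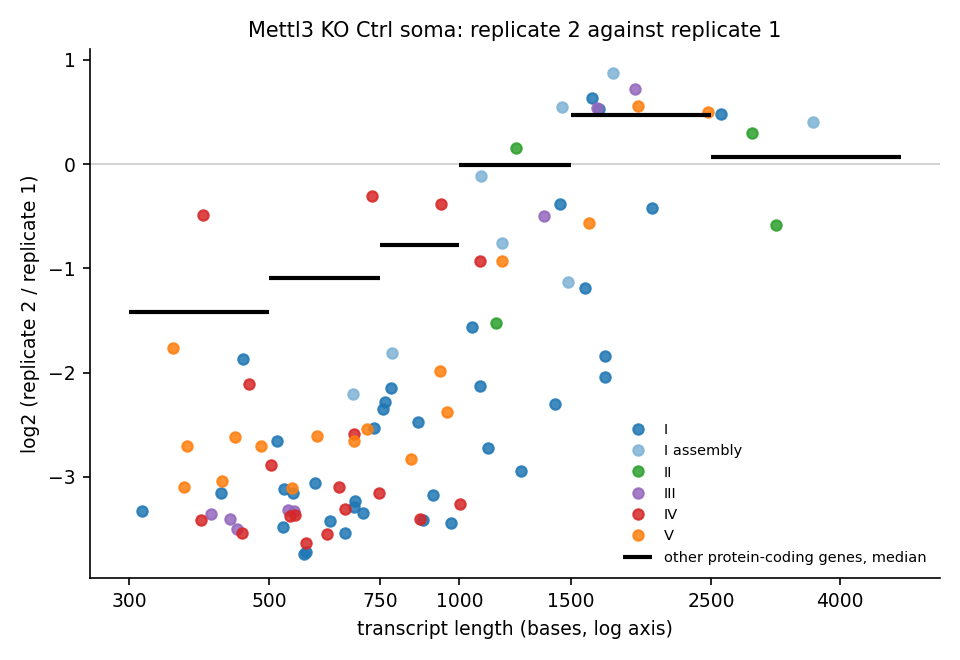
The log2 ratio of replicate 2 to replicate 1 of Mettl3 KO Ctrl soma (y axis) is plotted against transcript length in bases (x axis, log scale) for 91 respiratory chain genes, coloured by complex. Black bars are medians of the other protein-coding genes in each length class. Most RNAs up to 1000 bases lie between −2 and −4 and below the bars, and most of those over 1500 bases lie above 0.

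Among the members with the smallest p in KO soma, Atp5md, a small membrane subunit of ATP synthase, measured 227 and 184 CPM in WT and 94.5 and 27.5 CPM in KO (log2 −1.69, adjusted p = 0.291). Both KO libraries were below both WT libraries, also with replicate 1 alone. Cox7a1 (−1.49, adjusted p = 0.348) lay between 0.28 and 1.30 CPM, and Sdhd (−0.65, adjusted p = 0.397) measured 116 and 124 CPM in WT and 71.2 and 79.2 CPM in KO. With KO soma replicate 2 and both libraries of KCl-treated KO insert 1 left out, a choice made after the values were seen, 4 genes were called lower in KO and 0 higher, against 2.81% and 1.18% of all genes. These were Atp5md (−1.08, adjusted p = 0.0212), Ndufa3 (−0.84, adjusted p = 0.0354), Ndufb1 (−0.82, adjusted p = 0.0313) and Ndufaf7 (−0.71, adjusted p = 0.0496). The median of the 92 was then 0.04.

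In Ctrl neurites, edgeR called 0 of the 92 between KO and WT, against 0.0642% higher and 0.124% lower in KO among all 21814 genes tested, with 1 at an unadjusted p under 0.05 and 0 called by DESeq2. Sdhc, a membrane anchor of complex II, was that gene, at 57.8 and 52.0 CPM in WT and 138 and 95.9 CPM in KO (log2 1.07, SE 0.32, adjusted p = 0.344). Ndufa4l2 (−1.11, adjusted p = 0.673) and Cox7a1 (−0.77, adjusted p = 0.825) followed, both below 3 CPM in all 4 libraries. The median was 0.05, beside 0.01 over all genes, and its sign turned with 1 library, to −0.11 without KO neurite replicate 1 and −0.01 without WT neurite replicate 1, while it was 0.24 without KO neurite replicate 2. With the same 3 libraries left out, Sdhc (1.11, adjusted p = 0.00501), Cox6b2 (0.95, adjusted p = 0.0339), Cox7a2l (0.62, adjusted p = 0.0307) and Atp5d (0.59, adjusted p = 0.0195) were called higher in KO and Atp5md (−0.62, adjusted p = 0.04) lower, against 3.93% and 4.3% of all genes. Cox6b2 also stood high in the 2 libraries with glial RNA, at 24.9 and 48.7 CPM against at most 13.4 elsewhere. Summed astrocyte and neuron markers differed between genotypes, with overlap in some comparisons. Summed astrocyte markers were 7262 and 3006 CPM in KO Ctrl neurites against 3364 and 2094 in WT, and 2549 and 2131 CPM in KO Ctrl soma against 1246 and 1266 in WT, with none of the 11 at 0. Summed neuron markers were 3822 and 4091 CPM in KO and 5663 and 6190 CPM in WT neurites. In soma they overlapped, at 3483 and 4666 CPM in KO and 4285 and 4466 CPM in WT. The neuron markers did not move alike in neurites. Map2 measured 549 and 637 CPM in KO and 1436 and 1830 CPM in WT, whereas Tubb3 measured 947 and 862 against 811 and 683. Of the 11 astrocyte and 10 neuron markers, edgeR called 0 between genotypes in either compartment, with 1 astrocyte marker in each and 1 neuron marker in neurites at an unadjusted p under 0.05. The part of these markers in the genes called with 3 libraries left out was not tested.

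Within Mettl3 KO, the neurite/soma values were positive but spread widely. In KO Ctrl neurons, edgeR and DESeq2 called 0 of the 92 and edgeR 0 of all 22557 genes tested (0% in each direction), with 12 of the 92 at an unadjusted p under 0.05. The median was 1.29, and 82 of 92 values were positive. Both neurite libraries lay above both soma libraries for 69 genes and below for 3, against 23.7% and 21.2% of all genes tested. Insert 1 had a median log2 ratio of 0.77, and insert 2, with the soma library that stands apart, 2.85. Without that library the median was 0.52 with 0 called. The smallest p-values were those of Ndufv3 (1.39), a complex I subunit, Ndufa3 (2.25) and Atp5md (1.76), with an adjusted p of 0.841 each in edgeR's test. Ndufa3 was the 1 gene called with no minimum count (2.26, adjusted p = 0.0413).

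In KCl-treated KO neurons, edgeR and DESeq2 called 0 of the 92 and edgeR 0 of all 23152 genes tested (0% in each direction), and 0 of the 92 had an unadjusted p under 0.05. The median was 0.27, and the inserts had medians of 0.30 and 0.34. Both neurite libraries lay above both soma libraries for 42 genes and below for 0, against 11.1% and 8.59% of all genes tested. Cox7a2l (0.65), Ndufa3 (0.90) and Atp5k (0.92) had the smallest p, with an adjusted p of 1 each. Without KO KCl neurite replicate 2 the median was 0.09, and without neurite replicate 1 it was 0.49. Insert 1 is the one with glial RNA. Its neurite library held more astrocyte and oligodendrocyte lineage marker RNA than its soma library, but less of the microglial markers, at 284 against 391.95 CPM.

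The KO change in neurite enrichment without KCl, fitted with 1 term per insert, was called for 9 of the 92 as higher in KO and 0 as higher in WT (by at least 1.5-fold, with an unadjusted p no higher than 0.05), against 2.91% and 1.28% of all 22942 genes tested. No adjusted p was below 0.934, and the median was 1.36. Up to 500 bases 3 of 16 were called higher in KO, against 18.5% of 146 other protein-coding genes. From there to 750 bases it was 2 of 30 against 13.7%, and to 1000 bases 1 of 13 against 15.1%. In these short classes the calls were near or below the share of other genes. Above that it was 0 of 16 to 1500 bases (4.44%), 1 of 12 to 2500 (0.741%) and 1 of 4 beyond (0.651%). The 9 were Ndufb1, Ndufb3, Ndufc2 and Ndufs4 of complex I, the assembly factor Ndufaf2, Sdhc of complex II, and Atp5e, Atp5g2 and Atp5md of complex V, at log2 0.78 (Sdhc) to 2.01 (Atp5e). Without KO Ctrl insert 2, the median was 0.20 and 2 genes were called, Sdhc (0.71, adjusted p = 0.537) and Sdhd (0.65, adjusted p = 0.563). Sdhc was the 1 gene called both with and without that insert, and both its KO neurite libraries lay above all WT Ctrl libraries. The KO soma and neurite libraries of this change are those of the comparisons above.

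The DART-seq scores, which sum the average C-to-U percentages over the called sites of an RNA and have no replicates, were low for respiratory chain RNAs. The median WT score was 3.09% over the 39 RNAs and 10.3% over all 5643 RNAs with sites, with medians of 1 and 2 sites. Among RNAs with 1 site the medians were 1.29% over 20 respiratory chain RNAs and 4.32% over all 1825. Site calling depended on coverage, and these sets were not matched for level. Cox6b2 led with 16.3% over 4 sites, followed by Ndufaf3 (11.985%), Sdha (10.2%), Ndufv1 (8.62%), Uqcrc2 (8.36%) and Atp5g1 (7.81%). The Atp5g1 site and the Atp5md site are each listed in 2 lines at 1 position, and the score adds both. The average at a site and the score need not match for RNAs with several sites: Ndufa12 had a score of 7.12% and a site at 10.4%. The KO score was lower for 39 of 39 RNAs (median 0.749%), which the site caller had required.

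Scores were higher in neurites for 30 of the 39 (76.9%), against 68.8% of all 5643 RNAs. Among RNAs with 1 site, they were higher for 14 of 20 respiratory chain RNAs (70.0%), against 58.5% of all 1825. Cox6b2 had 10.1% in soma and 20.3% in neurites, Atp5g1 4.44% and 13.4%, Sdha 6.39% and 14.1%, and Ndufs7 2.85% and 9.92%. Ndufb11, an accessory complex I subunit, was listed at 0 in soma and at 6.76% in neurites. Cox4i1 went the other way, with 4.05% in soma and 2.34% in neurites, and its KO score was listed at 0. By the authors' description, the soma and neurite averages each pool Ctrl and KCl-treated samples. Depth at a site was unknown, and no test could be made of these averages.

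**Figure D5:**
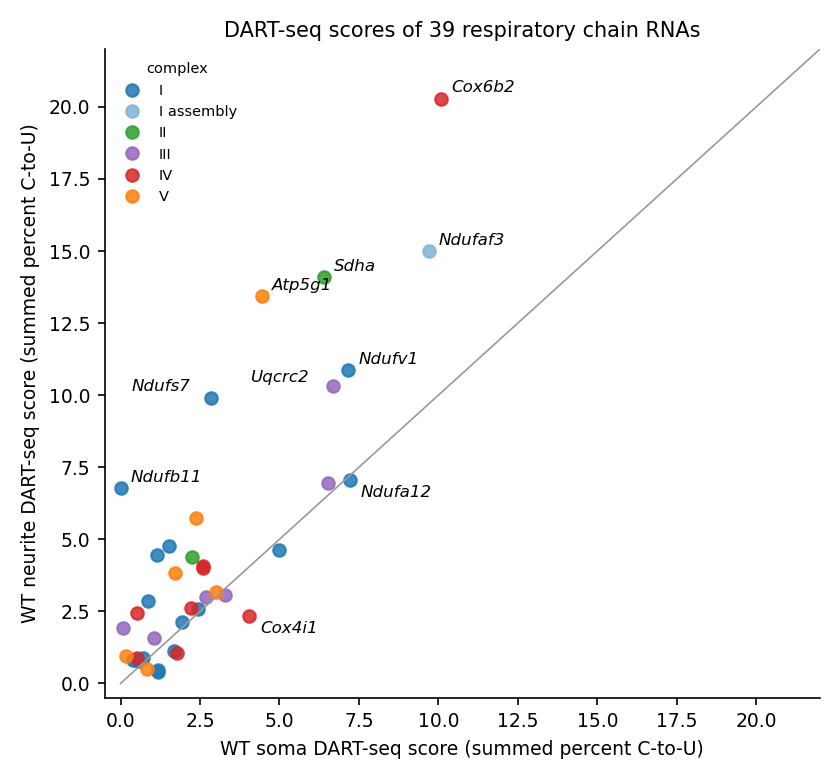
The WT DART-seq score in soma (x axis) and in neurites (y axis), each a sum of C-to-U percentages over the sites of an RNA, is plotted for the 39 respiratory chain RNAs with sites, coloured by complex. The scores pool Ctrl and KCl-treated samples, and the line marks equal scores. 30 of the points lie above it, with Cox6b2 at the top right.

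RNAs with and without a DART-seq site were set side by side in the same comparisons, with no test. In WT Ctrl, 18 of 39 RNAs with a site and 19 of 53 without were called higher in neurites, with medians of 0.55 and 0.36. In KO against WT, the medians with and without a site were 0.03 and 0.07 in soma without KO soma replicate 2, and 0.01 and 0.10 in neurites. With the 3 libraries left out, 3 of the 4 genes called higher in KO neurites (Cox6b2, Cox7a2l and Atp5d) had a site and Sdhc had none. Atp5md, called lower there, had a site as well. The 4 genes are 4.35% of the 92, close to the 3.93% of all genes. The medians with and without a site were then 0.05 and 0.14 in neurites, and 0.02 and 0.05 in soma.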

How the data were processed

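The deposited counts are fragments per gene as the authors counted them over exons, not normalized. Per the file headers and the labels, reads were aligned to mm10 with STAR 2.7.7a and counted with featureCounts 2.0.1 on Ensembl genes, without strand and with multi-mapping reads kept, so that a gene and its antisense partner, paralogue or pseudogene can share counts. In the DART-seq tables, the authors' score is a sum of average C-to-U fractions over the sites of an RNA, and the deposited site value is a fraction averaged over WT libraries. Both are given here in percent. The deposited tables of DESeq2 results, which hold the authors' fold changes and p-values, were used only for symbols and biotypes.

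Counts were scaled by TMM and tested in edgeR 4.0.16 (two-sided quasi-likelihood F-test, p adjusted by Benjamini-Hochberg over all genes tested) in R 4.3.3, with 1 coefficient per group. Genes with a mean count below 10 over the compared libraries were not tested. WT comparisons were fitted to the 8 WT libraries, KO neurite/soma comparisons to the 8 KO libraries, and KO against WT to all 16. Changes of neurite enrichment had 1 term per insert, and were called at an unadjusted p of at most 0.05 and 1.5-fold. Other calls needed 1.5-fold (2-fold for KCl) and an adjusted p no higher than 0.05. Alternatives were DESeq2 1.42.0, RLE scaling, other count filters, other sets of libraries, a replicate block, a loess correction for exon length and each replicate left out. The model was tested on simulated counts.

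Exon and transcript lengths came from GRCm38 (GENCODE M21), the shortest APPRIS principal transcript being used, and the build matched that of the counts. Genes named were the 2 highest and 2 lowest WT Ctrl differences per class (mean of at least 10 CPM), the isoform sets, the 3 smallest p of each other comparison, the genes with DART-seq sites, and called genes where at most 5 were called. Genes named beside them were chosen after their values were seen. The 92 genes and the other lists were chosen with earlier results of these data known. Replicates were separate litters, and p-values cover the spread between 2 libraries a group. Ndufb1 had no length in the annotation used.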

Additional observations from a re-analysis of the deposited data

Results flagged for a closer look

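The KO change in neurite enrichment without KCl is a difference between genotypes under the same contrast. Of all genes tested, 2.91% were higher in KO by its unadjusted threshold. Of other protein-coding genes up to 1000 bases, 13.7% to 18.5% were, by length class. With an insert as a term, 9 of the 92 genes passed this threshold. Their log2 changes were 1.62 for Atp5g2, 0.78 for Sdhc, 1.58 for Ndufb3, 1.98 for Ndufc2, 1.67 for Ndufb1, 1.31 for Atp5md, 2.01 for Atp5e, 1.37 for Ndufaf2 and 1.18 for Ndufs4, each with an adjusted p of 0.934 (edgeR's quasi-likelihood test). Without KO Ctrl insert 2, whose soma library stood apart, the changes were 0.58 for Atp5g2, 0.71 for Sdhc, 0.59 for Ndufb3, 0.57 for Ndufc2 and 0.57 for Ndufb1. They were 0.48 for Atp5md, 0.54 for Atp5e, 0.44 for Ndufaf2 and 0.39 for Ndufs4, and Sdhc alone of the 9 still passed, although Atp5g2 had a p of 0.0396 below 1.5-fold. With KCl-treated KO insert 1 left out too, 6 genes were called higher in KO, of which 5 were among the 9. These 6 are 6.52% of the 92, slightly below the 7.27% of all 23095 genes tested.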

How the results depend on the processing

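With the KO libraries in the fit, the WT Ctrl count of 37 and the WT KCl count of 27 went to 0, where the KO libraries widened the shared spread (biological coefficient of variation 0.37 to 0.38 against 0.15). Leaving out a replicate gave 22 to 43 genes in WT Ctrl (22 without soma replicate 2) and 11 to 36 in WT KCl, 0 to 1 for the KCl change in neurite enrichment, 0 to 69 for KO soma (69 without KO soma replicate 1), 0 to 58 for KO Ctrl neurites against soma (58 without KO soma replicate 1) and 0 to 82 for the KO change in neurite enrichment. That last count of 9 was 53 with DESeq2, 16 with RLE scaling, 68 with no minimum count, 1 with the libraries of the comparison alone, 0 with an adjusted p, 14 with the length trend removed, 82 without KO Ctrl insert 1 (75 up, 7 down), 2 without KO Ctrl insert 2 and 0 without either WT Ctrl insert. KO Ctrl neurites against soma went from 0 to 1 with no minimum count. After the values were seen, leaving out 3 libraries gave 4 genes in KO soma and 5 in KO neurites. Except where the text or the construction of the fit names it, the cause was not tested. All these counts are of respiratory chain genes alone. Shares of all genes called under the same settings are not given beside them. The counts therefore show how far the calls moved, not whether these genes stood apart from other genes. Of the single genes, Uqcrfs1 in WT Ctrl turned from −0.0476 to 0.0511 with all 16 libraries, 0.032 with the libraries of the comparison alone and 0.0643 without WT Ctrl soma replicate 2, the other replicates giving down to −0.0811. The other single-gene values kept their sign under 795 alternatives (53 lost and 21 gained the call).

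The labels do not say that numbers mark an insert, and the difference between replicates in soma correlated with that in neurites at −0.14 in WT Ctrl, 0.02 in WT KCl, 0.07 in KO Ctrl and 0.90 in KO KCl. With the replicate block, 38 genes were called in WT Ctrl, 27 in WT KCl and 0 in the KCl responses and in KO, and the crossed pairing, chosen after seeing the data, also gave 38. Without the block, the KO change in neurite enrichment had 0 calls and the KCl change 0. Depth limited the rare isoforms, with as few as 5 counts for a gene in 1 library.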
